A study of Mus musculus with 4 samples.

Results

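The 43 genes described here encode proteins of T cell receptor signalling, from the receptor's own chains to the transcription factors at the end of the pathway. They were chosen by name, as the array probes whose gene name, or whose current symbol for the probe's accession, was on the list. All 43 were found among the 27593 genes of the array, and Themis was reached through its current symbol only. Each gene was represented by its brightest probe. The 4 samples were CD4+ T cells from spleen and lymph nodes of BALB/c mice. Regulatory T cells (Treg), taken as CD4+CD25+ cells, were transduced with lentivirus encoding GFP and a hairpin RNA, cultured in human IL-2 for 60 h, and the GFP+ cells were then sorted. The control library therefore carries vector, GFP and culture too. The hairpin was directed at Eos (si-Eos) in 1 sample and at Renilla luciferase (si-RL), the control, in the other. Untransduced Treg and untransduced naive T cells (naive T, CD4+CD25-CD62L-high) were the other samples. CD62L was named in the gate of naive T alone, and the number of mice behind a sample is not given in the sources used here. Each group was 1 array, so every difference below compares 2 libraries, has no replicate check and carries no p-value.

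Ikzf4 encodes Eos, a zinc-finger protein of the Ikaros family, and the title of the series places it in gene silencing by Foxp3, the transcription factor that defines Treg. The targeted gene went against the labels. Ikzf4 was higher in the si-Eos-labelled library than in the si-RL-labelled library on all 3 of its probes, by log2 differences of 0.93 ± 0.21, 1.96 ± 0.21 and 1.19 ± 0.22. Foxp3 was also higher there, by 4.30 ± 0.21, and was higher in Treg than in naive T by 4.42 ± 0.21. Against Treg, the Ikzf4 probes stood at -1.18, -1.27 and -0.67 in the si-RL-labelled library and Foxp3 at -3.43. In the si-Eos-labelled library over Treg, they stood at -0.25, 0.69 and 0.52, and Foxp3 at 0.87. Whether the hairpin labels were exchanged was not tested. The hairpin samples are therefore named by their labels throughout, as the si-Eos-labelled and the si-RL-labelled library, and each sign between them holds for the labels as deposited.

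When the T cell receptor meets its ligand, Lck phosphorylates the CD3 and ζ chains, and Zap70 docks there and phosphorylates the adaptors Lat and SLP-76 (Lcp2). These assemble phospholipase Cγ1, Vav1 and others, and the calcium and diacylglycerol made there lead to NFAT, to Ras and, through PKCθ, Bcl10 and Malt1, to NF-κB. Phosphatases, diacylglycerol kinases and ubiquitin ligases hold the pathway in check. Treg need signals of this receptor for their development and for suppression.

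All 43 members were well above background on all 4 arrays, so none was lost to a filter. Levels are given as relative signal, the processed spot intensity divided by the 75th percentile of its array, a unit that holds for 1 probe across arrays and not between probes. A gene was counted as apart where 2 arrays differed by at least 2-fold, a log2 difference of 1. Each ± gives the error that the scanner software assigned to both spots, combined, between 0.20 and 0.21 for the members, and it leaves out any spread between animals, cultures or amplifications. In such bulk samples, fewer cells of a type and less RNA per cell cannot be told apart.

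Between the hairpin libraries, 18 members were apart, in both directions. In the si-Eos-labelled library, 8 of 43 (18.6%) were at least 2-fold higher than in the si-RL-labelled library, against 10.7% of all 17081 measured genes, and 10 (23.3%) were lower, against 10.1%. The median member differed by -0.02 and the median of all genes by 0.04. Treg differed from naive T at fewer members. Rel alone was at least 2-fold higher there (2.33%, against 5.51% of all 17593 measured genes), and Themis, Txk, Trat1 and Dgka were lower (9.30%, against 2.04%). The median was -0.17, beside -0.02 for all genes. With spike-in scaling it was 0.11, beside 0.25 for all genes, so the members stayed below all genes.

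Against Treg, the si-RL-labelled library had 2 members at least 2-fold higher (4.65%, against 7.89% of all 17079 measured genes) and 5 lower (11.6%, against 8.20%). In the si-Eos-labelled library, none of the 43 was at least 2-fold higher than in Treg (against 8.85% of all 17895 measured genes) and 11 were lower (25.6%, against 10.0%). The member medians were -0.16 for the si-RL-labelled library and -0.18 for the si-Eos-labelled library. Both comparisons use the same Treg array. With normexp background correction both turned positive, to 0.22 and 0.12. In all, 23 members were apart in at least 1 comparison and 20 in none. The share of all genes apart in at least 1 comparison was not computed, so this count has no baseline.

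**Figure D1:**
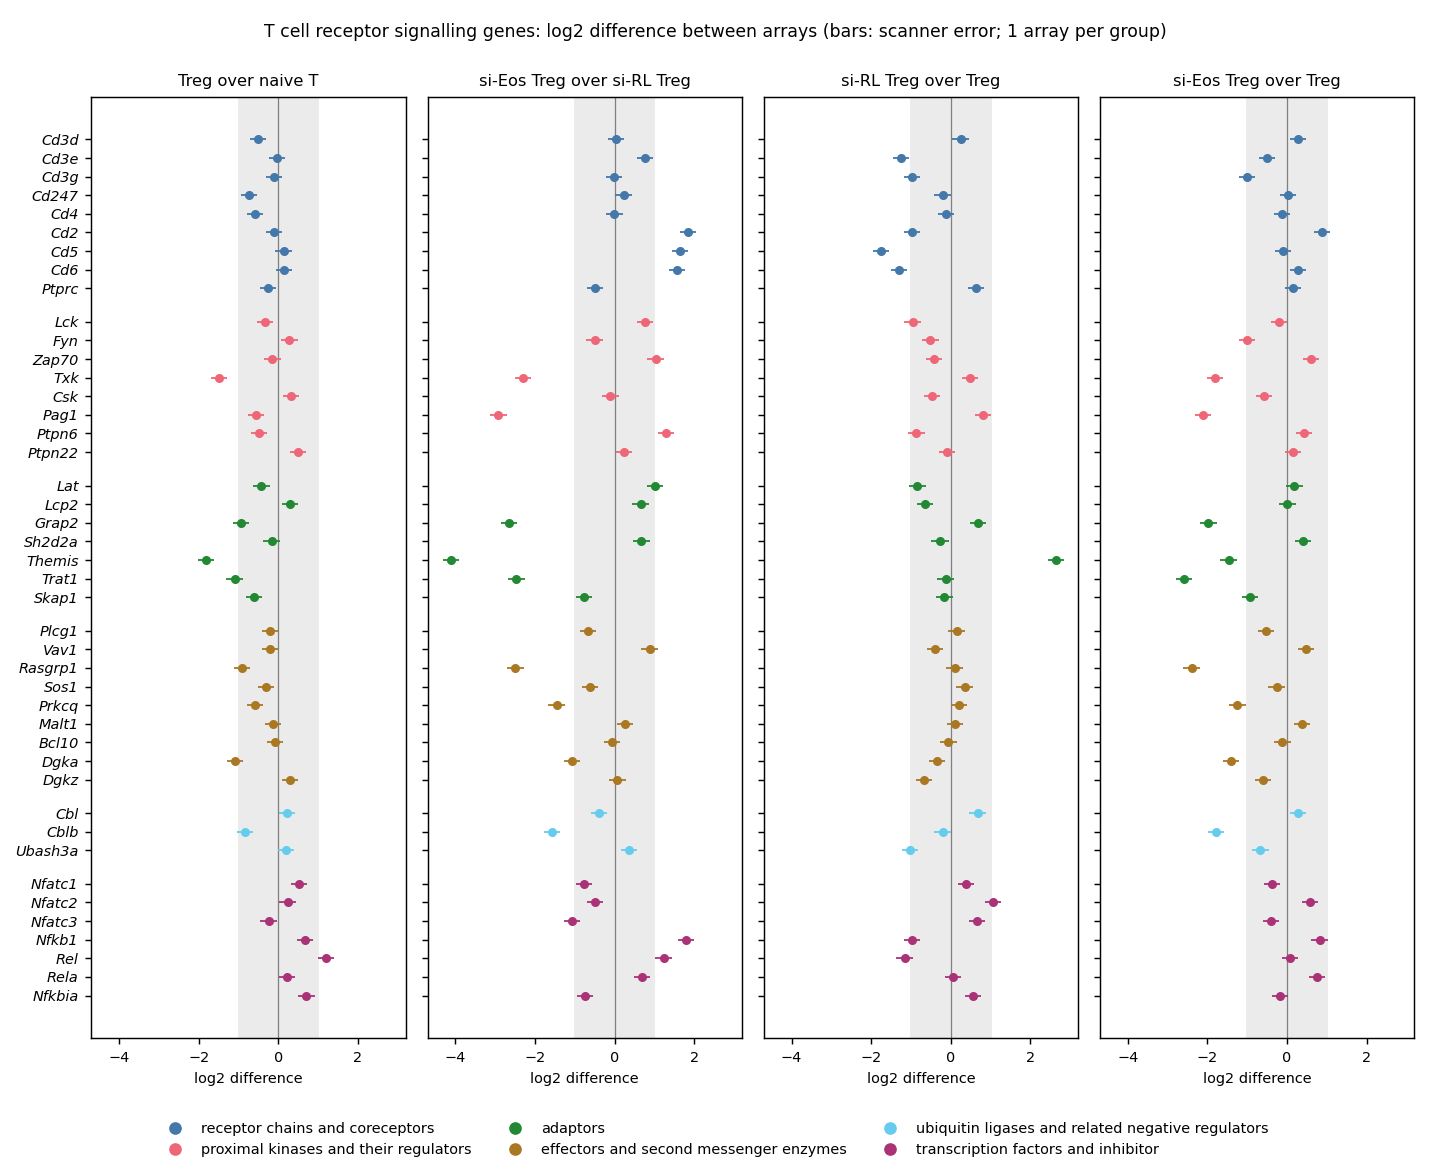
Log2 difference of each of the 43 members (rows, coloured by role) in 4 comparisons (panels), with horizontal bars for the scanner error and a grey band for differences under 2-fold. Most points lie in the band for Treg over naive T, and 18 lie outside it between the hairpin libraries, with Themis farthest at -4.12.

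The comparison of Treg with naive T and that of the hairpin libraries share no array. All 4 members that were at least 2-fold lower in Treg were also at least 2-fold lower in the si-Eos-labelled library, and they made up 40.0% of the 10 that were lower there. Rel was higher in both. Over all genes measured in both, 162 of the 295 genes lower in Treg (54.9%) were lower in the si-Eos-labelled library, which is 9.85% of the genes lower there. Of the 900 genes higher in Treg, 392 (43.6%) were higher in the si-Eos-labelled library, or 22.7% of the genes higher there. The members were thus apart in the direction in which many other genes of these arrays were.

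**Figure D2:**
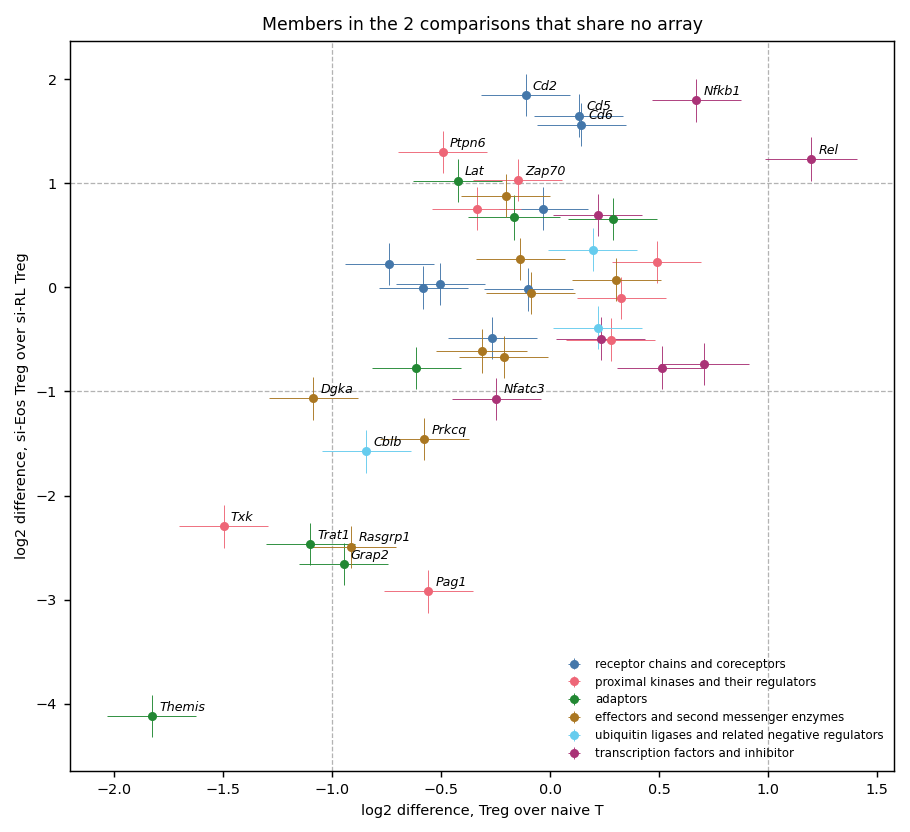
Log2 difference of each member for Treg over naive T (x axis) and for si-Eos over si-RL Treg (y axis), coloured by role, with scanner errors as bars and 2-fold marked by dashed lines. Themis, Txk, Trat1 and Dgka lie beyond 2-fold at the lower left, Rel alone does so at the upper right, and Cd2, Cd5 and Cd6 are beyond 2-fold on the y axis alone.

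The promoters of these 5 genes are printed because they are the members that were apart the same way in both of those comparisons, and Eos and Foxp3 are DNA-binding proteins. Each is the RefSeq window (GRCm38.p6) from 250 bases before to 50 after the gene's most upstream start, 5′ to 3′ on the gene's strand. The windows are Themis at chr10:28668110-28668409, plus strand; Txk at chr5:72752728-72753027, minus strand; Trat1 at chr16:48772013-48772312, minus strand; Dgka at chr10:128745035-128745334, minus strand; and Rel at chr11:23770920-23771219, minus strand. The array probes themselves lie, on the mm8 build, at chr10:28471681-28471740 for Themis, chr5:72975158-72975217 for Txk, chr16:48654474-48654533 for Trat1, chr10:128123149-128123208 for Dgka and chr11:23641729-23641743 for Rel. Capitals mark matches on either strand to the core motifs TGGGAA (Ikaros family), TAAACA (forkhead), AGGAAG (ETS), TGTGGT (RUNX) and CTTTGA (TCF/LEF).
Themis: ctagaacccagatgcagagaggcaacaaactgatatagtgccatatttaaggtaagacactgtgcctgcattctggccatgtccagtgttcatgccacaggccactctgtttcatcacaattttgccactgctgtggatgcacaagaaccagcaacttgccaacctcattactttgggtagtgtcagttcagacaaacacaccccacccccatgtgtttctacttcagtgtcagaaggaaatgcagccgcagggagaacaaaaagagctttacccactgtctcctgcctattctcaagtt
Txk: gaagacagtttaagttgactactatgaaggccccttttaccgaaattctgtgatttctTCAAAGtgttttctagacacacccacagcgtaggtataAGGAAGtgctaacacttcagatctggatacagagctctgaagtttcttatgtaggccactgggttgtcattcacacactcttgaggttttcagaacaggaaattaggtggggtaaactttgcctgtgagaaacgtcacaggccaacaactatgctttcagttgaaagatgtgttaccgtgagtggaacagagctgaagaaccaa
Trat1: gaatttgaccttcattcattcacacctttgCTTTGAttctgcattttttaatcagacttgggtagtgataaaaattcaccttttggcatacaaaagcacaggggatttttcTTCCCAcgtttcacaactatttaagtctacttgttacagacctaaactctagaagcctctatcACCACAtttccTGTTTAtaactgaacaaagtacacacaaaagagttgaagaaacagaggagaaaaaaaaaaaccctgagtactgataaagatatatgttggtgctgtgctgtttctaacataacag
Dgka: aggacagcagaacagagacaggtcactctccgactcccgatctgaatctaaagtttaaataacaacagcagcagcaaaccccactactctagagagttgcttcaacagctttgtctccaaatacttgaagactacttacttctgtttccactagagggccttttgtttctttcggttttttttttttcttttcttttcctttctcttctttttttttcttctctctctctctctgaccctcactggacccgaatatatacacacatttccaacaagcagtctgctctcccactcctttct
Rel: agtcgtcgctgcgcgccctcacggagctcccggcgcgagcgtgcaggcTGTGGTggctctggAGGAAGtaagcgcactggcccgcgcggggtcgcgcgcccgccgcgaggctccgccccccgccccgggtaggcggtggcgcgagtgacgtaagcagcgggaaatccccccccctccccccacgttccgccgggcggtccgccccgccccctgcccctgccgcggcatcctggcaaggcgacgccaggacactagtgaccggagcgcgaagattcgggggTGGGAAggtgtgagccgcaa
Trat1 and Rel each held 1 Ikaros family motif, Trat1 also 1 forkhead motif, and no marked matches overlapped. None of the 5 motifs was found in the windows of Themis and Dgka, which says only that these letters are not there. A window was at hand for 34 of the 43 members. Of those, 13 (38.2%) held the Ikaros family motif, against 25.5% of 27025 genes, and 5 (14.7%) the forkhead motif, against 13.3%. The ETS motif was in 21 (61.8%), against 35.1% of all genes. The RUNX motif was in 5 (14.7%), against 16.9%, and the TCF/LEF motif in 9 (26.5%), against 16.2%. A match is a string of letters and no evidence of binding.

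Among the receptor chains and surface receptors, the CD3 and coreceptor genes were under 2-fold apart between the hairpin libraries while Cd2, Cd5 and Cd6 were not. Cd5 encodes a scavenger-type receptor that restrains receptor signalling. Its relative signal was 81.9 in the si-Eos-labelled library, 26.1 in the si-RL-labelled library, 88.2 in Treg and 80.5 in naive T. Only the si-RL-labelled library was low, and the other 3 arrays were within 1.10-fold of each other. Between the hairpin libraries Cd5 differed by 1.65 ± 0.20, and the si-RL-labelled library was below Treg by a log2 difference of -1.76 ± 0.20. Cd6, a relative of Cd5 with a similar role, read 138 in the si-Eos-labelled library, 46.8 in the si-RL-labelled library, 115 in Treg and 104 in naive T. It had the same low array, with 1.56 ± 0.20 between the hairpin libraries and 1.61 on its other probe. Cd2, an adhesion receptor that aids signalling, read 26.3 in the si-Eos-labelled library, 7.33 in the si-RL-labelled library, 14.4 in Treg and 15.6 in naive T. The si-RL-labelled library was again the lowest, but here the si-Eos-labelled library was also the highest, and they differed by 1.85 ± 0.20.

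Cd3e and Cd3g encode signalling chains of the receptor. Relative signal of Cd3e was 2.26 in the si-Eos-labelled library, 1.34 in the si-RL-labelled library, 3.19 in Treg and 3.26 in naive T. The fresh samples were alike, and the si-RL-labelled library was below Treg by -1.26 ± 0.20. Its other probe went the same way by -0.70, under 2-fold, and the mean of both probes, at -0.98, came just short of 2-fold. Between the hairpin libraries that other probe gave -0.67, opposite to 0.76 on the probe used. For the si-Eos-labelled library over Treg it gave -1.37, against -0.50 on the probe used. Cd3g read 22.5 in the si-Eos-labelled library, 22.9 in the si-RL-labelled library, 45.1 in Treg and 48.4 in naive T. Both transduced samples were low and both fresh ones high, with differences from Treg of -1.0 ± 0.20 in the si-Eos-labelled library and -0.98 ± 0.20 in the si-RL-labelled library, so the 2-fold line separated values that differ by less than the scanner error. Cd4, the coreceptor on which the cells were selected, read 1.62 in the si-Eos-labelled library, 1.62 in the si-RL-labelled library, 1.77 in Treg and 2.65 in naive T. It was under 2-fold apart in every comparison. Cd3d, Cd247 (the ζ chain) and Ptprc (CD45, the phosphatase that keeps Lck active) were also under 2-fold apart in every comparison on the probes used.

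The proximal kinases and their regulators split. Lck, the kinase that starts the cascade, read 41.0 in the si-Eos-labelled library, 24.3 in the si-RL-labelled library, 47.3 in Treg and 59.7 in naive T. The si-RL-labelled library was the lowest, and no pair compared reached 2-fold, with 0.76 ± 0.20 between the hairpin libraries. Zap70, the kinase recruited to phosphorylated receptor chains, read 13.9 in the si-Eos-labelled library, 6.79 in the si-RL-labelled library, 9.08 in Treg and 10.1 in naive T. The hairpin libraries were the extremes, 1.03 ± 0.20 apart, a value within its error of the 2-fold line that came to 0.89 with quantile normalization. Fyn, a kinase related to Lck, read 1.29 in the si-Eos-labelled library, 1.83 in the si-RL-labelled library, 2.61 in Treg and 2.15 in naive T. The si-Eos-labelled library was the lowest, and below Treg by -1.01 ± 0.20, which median scaling moved to -0.90.

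Txk, a Tec-family kinase, followed another order. Its relative signal was 2.43 in the si-Eos-labelled library, 11.9 in the si-RL-labelled library, 8.52 in Treg and 24.0 in naive T. Naive T cells were the highest and the si-Eos-labelled library the lowest. It was 2.82-fold lower in untransduced Treg than in naive T (log2 difference -1.50 ± 0.20) and 4.91-fold lower in the si-Eos-labelled library than in the si-RL-labelled library (-2.30 ± 0.20), and its other probe gave -1.49 and -2.14. Pag1, a membrane adaptor that recruits the inhibitory kinase Csk, read 0.509 in the si-Eos-labelled library, 3.85 in the si-RL-labelled library, 2.21 in Treg and 3.26 in naive T. On this probe the si-Eos-labelled library was low, 7.57-fold below the si-RL-labelled library (-2.92 ± 0.20, with -2.48 and -2.04 on the other probes). Against Treg, the si-RL-labelled library was at 0.80 on this probe, and at 0.63 and -1.76 on the others. Ptpn6 (SHP-1), an inhibitory phosphatase, read 10.8 in the si-Eos-labelled library, 4.39 in the si-RL-labelled library, 7.99 in Treg and 11.2 in naive T. On this probe the si-RL-labelled library was the low array, by 1.30 ± 0.20 between the hairpin libraries, though the other probes differed by 0.22 and 0.27 only. For the si-RL-labelled library over Treg, the probe used gave -0.86 and the others 0.03 and 0.18. Csk itself and the phosphatase gene Ptpn22 were under 2-fold apart in every comparison.

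**Figure D3:**
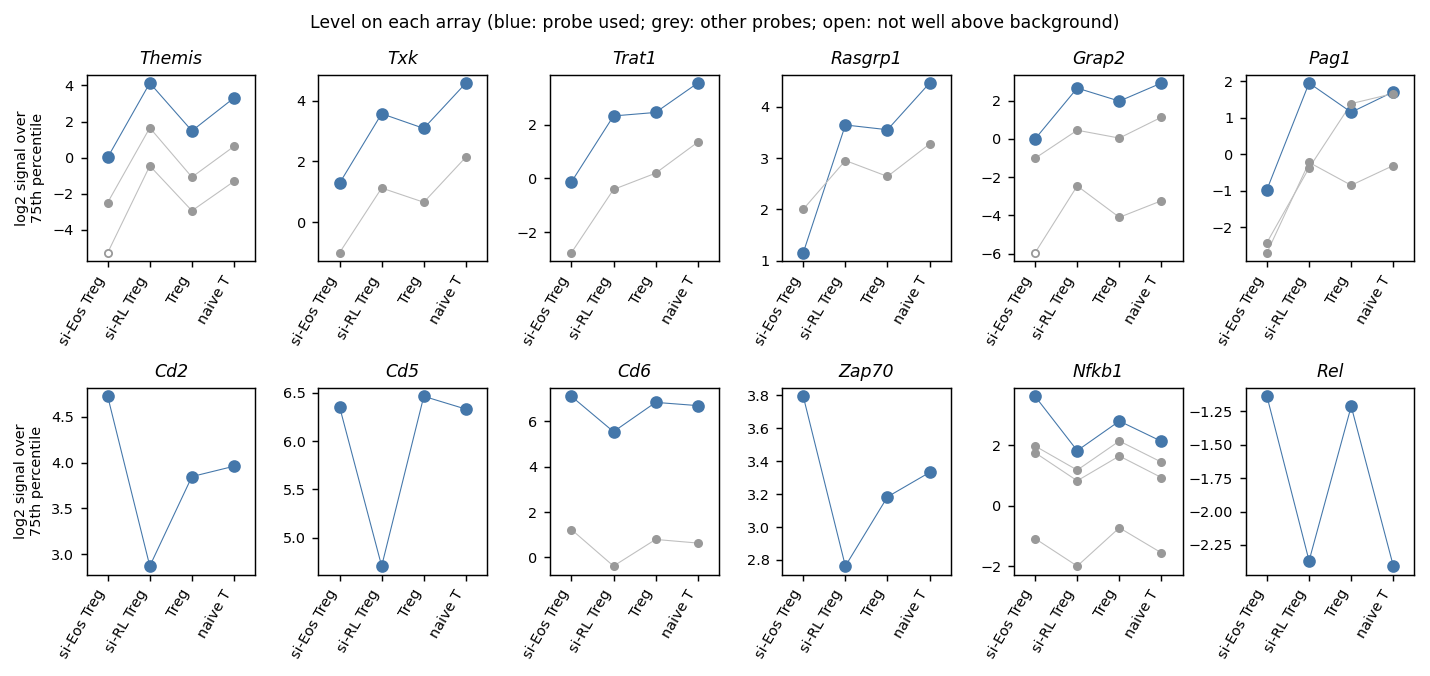
Level on each array (log2 of the signal over the array's 75th percentile, y axes with their own ranges) for 12 members, with the probe used in blue, other probes in grey and values not well above background as open points. Themis, Txk, Trat1, Rasgrp1, Grap2 and Pag1 are lowest in the si-Eos-labelled library on the probes used, while Cd2, Cd5, Cd6 and Zap70 are lowest in the si-RL-labelled library.

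Of the adaptors, Themis had the widest difference of any member. Themis binds Lat complexes through Grb2 and is known for its part in thymocyte selection. Its relative signal was 1.01 in the si-Eos-labelled library, 17.6 in the si-RL-labelled library, 2.80 in Treg and 9.94 in naive T. The si-RL-labelled library was the highest, above naive T, and the si-Eos-labelled library the lowest. Themis was 17.4-fold lower in the si-Eos-labelled library than in the si-RL-labelled library (-4.12 ± 0.20) and 3.55-fold lower in untransduced Treg than in naive T (-1.83 ± 0.20). Against Treg it was 6.27-fold higher in the si-RL-labelled library (2.65 ± 0.20) and 2.77-fold lower in the si-Eos-labelled library (-1.47 ± 0.20). The other measured probes gave -4.14 between the hairpin libraries and 2.48 and 2.73 for the si-RL-labelled library over Treg. With normexp the difference of the si-Eos-labelled library from Treg was -0.92, under 2-fold.

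Trat1 encodes TRIM, a transmembrane adaptor that associates with the receptor. It read 0.912 in the si-Eos-labelled library, 5.04 in the si-RL-labelled library, 5.52 in Treg and 11.8 in naive T. Here the si-RL-labelled library was close to Treg, and the si-Eos-labelled library was low, with -2.47 ± 0.20 between the hairpin libraries and -2.60 ± 0.20 against Treg. Treg were below naive T by -1.10 ± 0.20, or -0.82 with spike-in scaling. Grap2 (Gads), which joins Lat to SLP-76, read 0.996 in the si-Eos-labelled library, 6.29 in the si-RL-labelled library, 3.92 in Treg and 7.55 in naive T. It was 6.31-fold lower in the si-Eos-labelled library than in the si-RL-labelled library (-2.66 ± 0.20), with -1.46 on its other measured probe. Lat, the central scaffold, read 22.1 in the si-Eos-labelled library, 10.9 in the si-RL-labelled library, 19.4 in Treg and 26.0 in naive T. The si-RL-labelled library was the low array, by 1.02 ± 0.20 between the hairpin libraries and 0.90 with quantile normalization. Lcp2, Sh2d2a (an adaptor that binds Lck) and Skap1 (an adaptor of integrin activation) were under 2-fold apart in every comparison.

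Among the effectors, the 3 members that were apart were all lower in the si-Eos-labelled library. Rasgrp1, the exchange factor that links diacylglycerol to Ras, read 2.22 in the si-Eos-labelled library, 12.5 in the si-RL-labelled library, 11.7 in Treg and 22.1 in naive T. The si-Eos-labelled library was low, at -2.49 ± 0.20 against the si-RL-labelled library and -2.40 ± 0.20 against Treg. Its other probe gave -0.95 and -0.64, so the sign held and the size did not. Prkcq (PKCθ), the kinase that leads to NF-κB, read 5.55 in the si-Eos-labelled library, 15.3 in the si-RL-labelled library, 13.2 in Treg and 19.7 in naive T. The si-Eos-labelled library was again the lowest, by -1.46 ± 0.20 against the si-RL-labelled library. The other measured Prkcq probe gave -0.98, just under 2-fold. Dgka, a kinase that consumes diacylglycerol and so restrains Ras signalling, read 18.6 in the si-Eos-labelled library, 39.0 in the si-RL-labelled library, 49.4 in Treg and 105 in naive T. It was lower in Treg than in naive T by -1.09 ± 0.20 and in the si-Eos-labelled library than in the si-RL-labelled library by -1.07 ± 0.20. Both are close to the 2-fold line, and the first came to -0.81 with spike-in scaling or quantile normalization and the second to -0.99 with normexp.

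The other 6 effector genes, Plcg1 (phospholipase Cγ1), Vav1, Sos1 (exchange factors), Malt1, Bcl10 and Dgkz (diacylglycerol kinase ζ), were under 2-fold apart in every comparison on the probes used. Of the ubiquitin ligases and related regulators, Cblb, a ligase that sets the threshold for activation, read 1.38 in the si-Eos-labelled library, 4.10 in the si-RL-labelled library, 4.74 in Treg and 8.5 in naive T. It was low in the si-Eos-labelled library, at -1.58 ± 0.20 against the si-RL-labelled library, but its other, dimmer probe gave 0.72, the opposite sign. Ubash3a (STS-2), a negative regulator, read 1.06 in the si-Eos-labelled library, 0.828 in the si-RL-labelled library, 1.70 in Treg and 1.48 in naive T. Both transduced samples were below both fresh ones, and the si-RL-labelled library was below Treg by -1.03 ± 0.20, or -0.95 with median scaling. Cbl was under 2-fold apart throughout.

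The NF-κB genes Nfkb1 and Rel were higher in the si-Eos-labelled library than in the si-RL-labelled library, and NFAT genes were not. Nfkb1, which encodes the p105/p50 subunit, read 12.3 in the si-Eos-labelled library, 3.54 in the si-RL-labelled library, 6.97 in Treg and 4.38 in naive T. The hairpin libraries were the extremes, 1.79 ± 0.20 apart, with 0.79 to 0.93 on the 3 other probes. Rel (c-Rel), a subunit needed for Treg development, read 0.455 in the si-Eos-labelled library, 0.194 in the si-RL-labelled library, 0.432 in Treg and 0.188 in naive T. The si-Eos-labelled library and Treg were alike and high, and the si-RL-labelled library and naive T were alike and low. Rel differed by 1.23 ± 0.21 between the hairpin libraries, by 1.20 ± 0.21 for Treg over naive T and by -1.16 ± 0.21 for the si-RL-labelled library over Treg. With normexp the first came to 0.62 and the second to 0.82, and median scaling took the second to 0.99.

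Nfatc3 read 4.51 in the si-Eos-labelled library, 9.47 in the si-RL-labelled library, 6.0 in Treg and 7.11 in naive T. The si-RL-labelled library was the highest and the si-Eos-labelled library the lowest, -1.07 ± 0.20 apart, with -1.35 on another probe. Nfatc2 read 1.49 in the si-Eos-labelled library, 2.10 in the si-RL-labelled library, 1.0 in Treg and 0.853 in naive T. Both transduced samples were above both fresh ones, and the si-RL-labelled library was above Treg by 1.07 ± 0.20. The other Nfatc2 probes gave -0.35 to 1.20 for that difference, and both the mean over probes and spike-in scaling gave 0.66, with 0.87 under normexp. Nfatc1, Rela and Nfkbia, the inhibitor that holds NF-κB in the cytoplasm, were under 2-fold apart in every comparison on the probes used. The other Rela probe was 1.21 higher in the si-Eos-labelled library than in the si-RL-labelled library.

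Set against Treg, the members at least 2-fold lower in the si-Eos-labelled library were 3 of 7 adaptors, 3 of 8 proximal kinases and their regulators, and 3 of 9 effectors. So were 1 of 3 ligases and related regulators, 1 of 9 receptor chains and surface receptors, and 0 of 7 transcription factors. Over all genes the share was 10.0%. With 3 to 9 genes per role, these counts do not rank the roles. Pag1 was below Treg by -2.12 ± 0.20, Grap2 by -1.98 ± 0.20, Txk by -1.81 ± 0.20, Cblb by -1.79 ± 0.20, Dgka by -1.41 ± 0.20 and Prkcq by -1.25 ± 0.20. On the same probes these genes stood at 0.80 (Pag1), 0.68 (Grap2), 0.48 (Txk), -0.21 (Cblb), -0.34 (Dgka) and 0.21 (Prkcq) in the si-RL-labelled library over Treg, all under 2-fold. Cd6 was the reverse, at 0.27 ± 0.20 in the si-Eos-labelled library and -1.29 ± 0.20 in the si-RL-labelled library. Normexp brought several of these under 2-fold: Dgka (-0.78), Prkcq (-0.70), Fyn (-0.60) and Cd3g (-0.34) in the si-Eos-labelled library, and Cd3e (-0.76), Ubash3a (-0.73) and Cd6 (-0.67) in the si-RL-labelled library. The mean over probes did so for Cblb (-0.86), and between the hairpin libraries for Cblb (-0.43) and Ptpn6 (0.60).

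The 20 members under 2-fold apart throughout ranged from -0.74 (Cd247) to 0.71 (Nfkbia) for Treg over naive T and from -0.78 (Skap1) to 0.88 (Vav1) between the hairpin libraries. For the si-RL-labelled library over Treg they ranged from -0.96 (Lck) to 0.67 (Cbl), and for the si-Eos-labelled library over Treg from -0.94 (Skap1) to 0.75 (Rela). Differences of this size exceed the scanner error in part, and no replicate shows whether they exceed the spread between samples.

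Probes of 1 gene did not always tell the same story. Another measured probe existed for 26 members in each comparison, and for 7 of them a probe went the opposite way between the hairpin libraries, 7 for Treg over naive T, 12 for the si-RL-labelled library over Treg and 6 for the si-Eos-labelled library over Treg. Among the members that were at least 2-fold apart, this touched Cblb in both comparisons of the si-Eos-labelled library and Nfatc2 in the si-RL-labelled library over Treg. Malt1, the protease and scaffold of the NF-κB branch, was 0.27 ± 0.20 apart between the hairpin libraries on the probe used and 2.75 on its other, almost equally bright probe. That probe was also above Treg by 1.62 in the si-Eos-labelled library and below it by -1.13 in the si-RL-labelled library. Bcl10, its partner, was at -0.12 ± 0.20 for the si-Eos-labelled library over Treg on the probe used and at -2.46 on its other probe. The exons or transcript ends that these probes read were not analysed here.

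**Figure D4:**
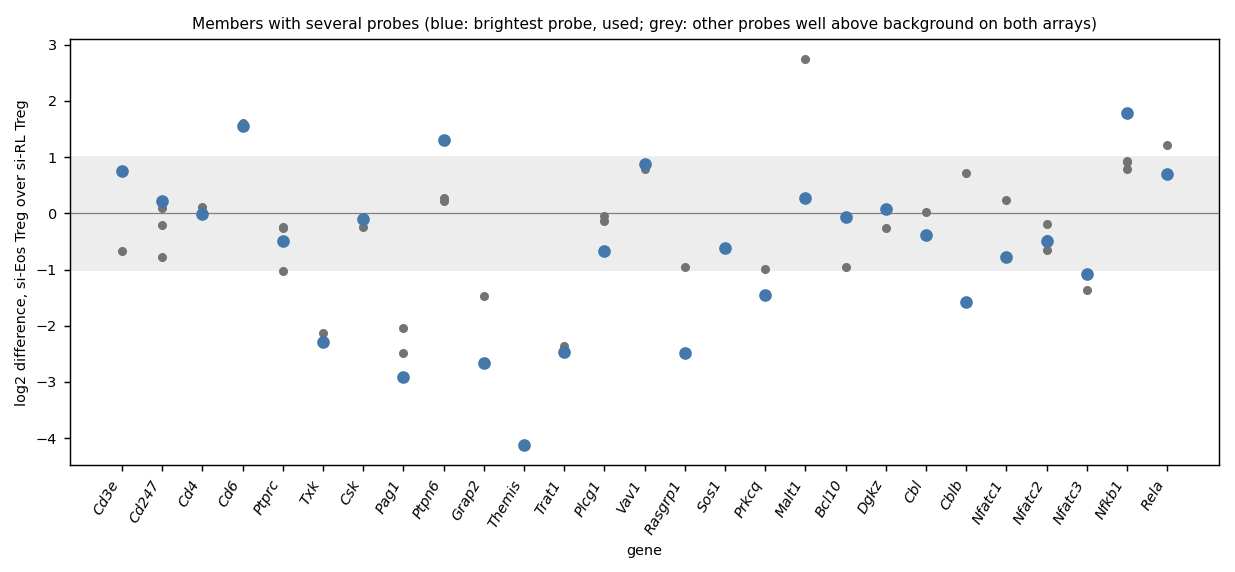
Log2 difference of si-Eos over si-RL Treg (y axis) for each probe of the members with several probes (x axis), with the brightest probe in blue, other probes well above background on both arrays in grey and a grey band for differences under 2-fold. All probes of Themis, Txk, Trat1, Grap2, Pag1 and Rasgrp1 lie below 0, while the probes of Malt1 and Cblb lie far apart.

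A further list held 80 pathway genes that are no members. Between the hairpin libraries, the si-Eos-labelled library was at least 2-fold higher at 13 of 79 measured (16.5%, against 10.7% of all genes) and lower at 11 (13.9%, against 10.1%). The highest were the inhibitory receptors Pdcd1 (PD-1, 5.11) and Ctla4 (2.49), Ubash3b, a phosphatase related to Ubash3a (1.82), and Prkca (protein kinase Cα, 1.68). The lowest were Rasgrp2, an exchange factor for Rap1 (-3.98), the cytoskeletal regulator Evl (-3.26), Fyb (ADAP, the partner of Skap1, -1.90) and Ppp3ca, a catalytic subunit of calcineurin (-1.85). For Treg over naive T, 6 of 78 (7.69%, against 5.51% of all genes) were higher, led by Ctla4 (3.65), Pdcd1 (3.12), Icos (2.30) and Map3k8 (2.13), and 3 (3.85%, against 2.04%) were lower, among them Rasgrp2 (-1.92) and the kinase Tec (-1.17).

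Against Treg, the si-RL-labelled library had 2 of 79 pathway genes (2.53%, against 7.89% of all genes) higher, Map3k8 (1.47) and Ppp3ca (1.43), and 9 (11.4%, against 8.20%) lower, among them Pdcd1 (-3.46), Ctla4 (-2.29), Tespa1 (-1.56) and the inhibitory adaptor Sit1 (-1.53). In the si-Eos-labelled library, 9 of 79 (11.4%, against 8.85%) were above Treg, led by Pdcd1 (1.65), Tec (1.57), Traf6 (1.54) and Map3k7 (1.47), and 14 (17.7%, against 10.0%) below it, led by Rasgrp2 (-3.80), Evl (-3.17), Tespa1 (-2.76) and Tnfaip3 (A20, which ends NF-κB signalling, -2.51).

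The genes known to be induced by receptor signals were followed as a list of 20. In the si-Eos-labelled library, 13 (65.0%, against 10.7% of all genes) were at least 2-fold higher than in the si-RL-labelled library. Cd69 alone (-2.42) was lower there (5%, against 10.1%). In Treg, 12 (60.0%, against 5.51%) were higher than in naive T and none was lower (against 2.04%). They were Il2ra, Tnfsf11, Tnfrsf9, Tnfrsf4, Ifng, Tbx21, Nfil3, Irf4, Cd44, Nr4a2, Egr2 and Batf. Nr4a1, Nr4a3, Egr1, Egr3, Cd69, Myc, Il2 and Tnf were under 2-fold apart. Whether the list reads receptor signals in these cells was not tested. Among the 12 was Il2ra (5.33), which encodes CD25. Treg and naive T were gated on CD25, so Il2ra is no independent result. Naive T were also gated on CD62L, and the part of the gates in these differences was not tested. Il2ra is also on the list of Treg markers below. Against Treg, the si-Eos-labelled library had 9 higher (45.0%, against 8.85%) and 2 lower (10.0%, against 10.0%). Against Treg, the si-RL-labelled library had Myc alone higher (2.09), or 5% against 7.89% of all genes, and 6 lower (30.0%, against 8.20%).

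Marker lists of T cell states also differed between the samples, and their part in the differences of the members was not tested. Of 7 naive T cell markers, 5 (71.4%, against 10.1% of all genes) were at least 2-fold lower in the si-Eos-labelled library than in the si-RL-labelled library. Ccr7 was higher there (1.49), or 14.3% of the list against 10.7%. In Treg, 6 (85.7%, against 2.04%) were lower than in naive T. Summed relative signal of the 7 was 51.0 in the si-Eos-labelled library, 148 in the si-RL-labelled library, 65.2 in Treg and 197 in naive T. Lef1 alone gave 11.1 in the si-Eos-labelled library, 81.3 in the si-RL-labelled library, 15.8 in Treg and 69.6 in naive T. Such sums add different probes, so bright probes weigh most and sums of different lists cannot be compared. Of 7 Treg markers, Ctla4 and Il2ra among them, 6 (85.7%) were higher in each of these comparisons, against 10.7% and 5.51% of all genes. The 7 markers had sums of 323 in the si-Eos-labelled library, 120.0 in the si-RL-labelled library, 148 in Treg and 28.0 in naive T. Tnfrsf18 made up most of these sums, at 237 in the si-Eos-labelled library, 109 in the si-RL-labelled library, 81.7 in Treg and 24.1 in naive T. The 5 T cell markers, all of them members, were well above background on every array.

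Markers of other cells were also followed. The 10 CD8 T and NK cell markers summed to 57.5 in the si-Eos-labelled library, 4.13 in the si-RL-labelled library, 9.33 in Treg and 8.15 in naive T, of which Nkg7 alone gave 50.5 in the si-Eos-labelled library. Between the hairpin libraries, 3 of 7 measured were at least 2-fold higher in the si-Eos-labelled library: Nkg7 (5.69), Prf1 (3.48) and Eomes (3.26). Klrd1 (-0.02) and Klrb1c (-0.66) were not higher there. Gzma at 1.63 and Klrk1 at 0.849 were well above background in the si-Eos-labelled library and not in the si-RL-labelled library. Cd8a, which defines CD8 T cells with Cd8b1, differed by 0.38 on its brightest probe and -1.13 on its other probe. Cd8b1 differed by 0.32 and 1.39 on its probes, and Ncr1, of NK cells, was not well above background in either library. The part of such cells in the differences was not tested. The 11 B cell markers summed to 5.86 in the si-Eos-labelled library, 4.06 in the si-RL-labelled library, 32.7 in Treg and 27.9 in naive T. Of these sums, Jchain alone gave 22.5 in Treg and 23.1 in naive T. For Treg over naive T, 4 of 9 measured (44.4%, against 5.51% of all genes) were at least 2-fold higher and 0 lower (against 2.04%). The 4 were H2-Aa (2.70), H2-Ab1 (2.41), Cd79b (1.88) and H2-Eb1 (1.61). The 11 myeloid markers summed to 2.16 in the si-Eos-labelled library, 2.05 in the si-RL-labelled library, 1.90 in Treg and 1.97 in naive T.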

How the data were processed

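RNA of 4 samples was labelled with Cy3 and hybridised to 1-colour Agilent mouse arrays, 1 array per group, all on 1 slide in 1 scan. The deposited spot intensity is linear and came from Agilent Feature Extraction 9.5.3.1, which per the file headers subtracted a spatially detrended background and used build mm8. Arrays were left unnormalized against each other. The series value table held the same intensity values: on each array, 100% of its values lay within 0.5% of the scanner value. The column medians, 38.5 (si-Eos), 31.5 (si-RL), 50.5 (Treg) and 33.2 (naive T), show a linear scale without centring.

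Each of 41174 probes was divided by its array's 75th percentile of processed signal (262 to 392) and put on the log2 scale. Outlier spots (71 to 94 per array) were left out, spots of 1 probe were averaged, and each gene took its brightest probe. No probe was saturated. Between 64.0% and 68.3% of probes were well above background. Symbols came from a RefSeq table (GRCm38.p6) by accession for 24375 probes, by symbol for 6301 and by single synonym for 2426, and 8072 kept the file's name. Genes measured in a comparison were well above background on both arrays.

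Without replicates no test was run. The number of arrays limits the precision. The counting step was tested on simulated data, with changes planted beyond the 2-fold line and noise from the scanner error alone. That holds no spread between animals, cultures or amplifications, so it checks the counting code and not the counts reported. Alternatives were 3 other scalings (median, 6 spike-in probes, quantile), normexp with offset 50 (limma 3.58.1, R 4.3.3), the mean over probes, no background filter and the series value table. Values are given for each member at least 2-fold apart in any comparison and for Cd3e, Cd4, Lck, Zap70 and Lat. Of the other pathway genes, up to 4 each way per comparison are named, except 1 that is not reported here. The members and lists were chosen with earlier results of these data known. Malt1 and Bcl10 were singled out for their probes after the values were seen.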

Additional observations from a re-analysis of the deposited data

Results flagged for a closer look

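Themis, an adaptor of T cell receptor signalling, differed from untransduced Treg in opposite directions in the hairpin libraries: by -1.47 in the si-Eos-labelled library and by 2.65 in the si-RL-labelled library, on the log2 scale. It was the only one of the 43 members at least 2-fold apart from Treg in both libraries with opposite signs. Each library is 1 array and both share the Treg array, so the difference between them was not tested.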

How the results depend on the processing

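No paired analysis was possible because each group had 1 array. Between the hairpin libraries, all counts and the median of the members stayed within 1.5 times, or within the scanner error, under all 7 alternatives. There were 6 to 8 members higher and 9 to 10 lower. Over all genes, counts ran from 1138 higher and 831 lower of 17075 (normexp) to 3570 and 2861 of 27593 (no background filter). For Treg over naive T, median scaling gave 0 members higher, 7 lower and a median of -0.38. Spike-in scaling gave 2 lower and a median of 0.11, and normexp gave 0 higher, 9 lower and a median of -0.50. Of all 17593 genes measured, median scaling called 771 higher and 627 lower, and spike-in scaling 1461 and 201. Normexp called 1885 of 17573 genes higher and 372 lower. For the si-RL-labelled library over Treg, spike-in scaling gave 1 member higher, 13 lower and a median of -0.56. Normexp gave 6 members higher, 2 lower and a median of 0.22, and the mean over probes gave 1 higher. Of all genes, spike-in scaling called 627 of 17079 higher and 3125 lower. Normexp called 961 of 17070 genes higher and 4459 lower, and the mean over probes 1216 of 17098 higher. For the si-Eos-labelled library over Treg, spike-in scaling gave a member median of -0.52. Normexp gave 4 members higher, 6 lower and a median of 0.12, while of all 17877 genes it called 1446 higher and 5855 lower. The other alternatives kept these member counts within 1.5 times. The cause was not tested. The median of all genes shifted, under normexp in the opposite direction to the members: by 0.28 (spike-in), -0.21 (median) and 0.23 (normexp) for Treg over naive T, and by -0.40 and -0.34 (spike-in) and -0.30 and -0.42 (normexp) for the si-RL-labelled and si-Eos-labelled libraries over Treg. For the si-Eos-labelled library over Treg, median scaling shifted it by 0.12. The share of higher genes among all genes apart, 73.0% for Treg over naive T, became 55.2% (median), 87.9% (spike-in) and 83.5% (normexp). It was 49.0% for the si-RL-labelled library over Treg, or 16.7% (spike-in) and 17.7% (normexp), and 46.8% for the si-Eos-labelled library over Treg, or 23.5% and 19.8%. No member at least 2-fold apart changed sign under any alternative. Signal over background limits Rel, Sos1 and Sh2d2a most, whose probes were the dimmest of the members.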
